A study of Mus musculus with 6 samples.

Results

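The NF-κB family has 5 subunit genes, and all 5 (Nfkb1, Rela, Rel, Nfkb2 and Relb) were found by name among the 53278 genes of the count table and passed the filter on low counts. The RNA came from type-2 innate lymphoid cells (ILC2s) of visceral adipose tissue of C57BL/6 mice aged 8 weeks, which had been given 3 intraperitoneal injections of 1 µg IL-33, a cytokine that activates ILC2s. The cells, sorted as lineage-negative cells with CD45, ST2 and CD117, were cultured in both groups with IL-2 (10 ng/mL) and IL-7 (10 ng/mL), with either DTA-1 (5 µg/mL), an agonistic antibody to the TNF receptor family member GITR, or the isotype control. The culture lasted 48 h per the labels, while the results text of the study names a shorter time. Each group had 3 libraries, each made from 10 ng of RNA. The control samples are titled isotype, while the headers of their count columns read PBS-GITR. The labels do not say whether the libraries came from separate mice, so p-values measure only the spread between these samples. The comparison asks whether engagement of GITR changed the supply of NF-κB subunit mRNA. It also asks whether the balance between mRNA of the canonical and the noncanonical subunits shifted.

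NF-κB proteins share the Rel homology domain and act as dimers on DNA. In the canonical pathway, IκB proteins hold dimers of p50 with RelA (p65) or c-Rel in the cytoplasm until the IκB kinase marks the IκB for degradation, which takes minutes and needs no new subunit mRNA. In the noncanonical pathway, which several TNF receptor family members engage, the kinase NIK triggers the processing of the precursor p100 to p52, and dimers of p52 with RelB enter the nucleus slowly. Nfkb1 encodes the precursor p105, from which p50 is made, and Nfkb2 encodes p100. Rela, Rel and Relb encode subunits with a transactivation domain. Counts per gene measure precursor mRNA and cannot tell p105 from p50, or p100 from p52.

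The κB element is the DNA sequence that these dimers bind, and matches to its consensus occurred in promoters of subunit genes themselves. A RefSeq promoter (GRCm38.p6) was found for 3 of the 5 subunits, namely Nfkb2, Rel and Rela. The 250 bases before the RefSeq start are shown for these 3, and Nfkb1 and Relb had no entry to compare. Capitals mark matches to the κB consensus on either strand, and matches that overlap are joined into 1 stretch.
Nfkb2, chr19:46304487-46304736, + strand: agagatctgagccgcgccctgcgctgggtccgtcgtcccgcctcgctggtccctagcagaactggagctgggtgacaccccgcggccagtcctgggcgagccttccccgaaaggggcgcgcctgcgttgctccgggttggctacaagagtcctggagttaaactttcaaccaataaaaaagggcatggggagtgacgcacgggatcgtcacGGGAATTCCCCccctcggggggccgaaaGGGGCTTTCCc
Rel, chr11:23770970-23771219, − strand: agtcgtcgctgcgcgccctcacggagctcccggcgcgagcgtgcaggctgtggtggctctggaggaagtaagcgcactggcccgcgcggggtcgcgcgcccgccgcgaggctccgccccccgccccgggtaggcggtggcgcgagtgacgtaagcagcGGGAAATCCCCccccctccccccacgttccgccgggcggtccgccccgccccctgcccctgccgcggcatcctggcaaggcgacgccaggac
Rela, chr19:5637291-5637540, + strand: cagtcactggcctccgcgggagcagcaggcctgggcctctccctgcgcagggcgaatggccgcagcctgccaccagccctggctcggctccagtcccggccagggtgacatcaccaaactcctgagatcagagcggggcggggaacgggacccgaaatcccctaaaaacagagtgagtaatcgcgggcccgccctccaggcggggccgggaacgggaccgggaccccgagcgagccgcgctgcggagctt
The Nfkb2 promoter held 2 stretches, GGGAATTCCCC and GGGGCTTTCC, which began 39 and 11 bases before the start. The Rel promoter held 1 stretch, GGGAAATCCCC, 92 bases before the start, and the Rela promoter held 0. The other starts of Nfkb2 listed by RefSeq lay downstream, and their windows held 1 match each (GGAATGTCCC and GGGACTTTCC). Of 32851 promoter windows of the same length, 7.25% held at least 1 match. The looser pattern GGGNNNNNCC, which contains the consensus, was in 45.8% of windows and in all 3 promoters shown. A match describes letters only, and binding was not measured.

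Total counts ranged from 30569351 to 35131329 per library, and 3 counts, the limit that a count of 0 allows, equal 0.0848 to 0.0970 CPM. The library labelled DTA-1 replicate 1 stood apart from its group. The chi-square of its counts against another library, per degree of freedom, was 9.64 to 11.3 for the isotype control libraries and 27.1 and 28.2 for DTA-1 replicates 2 and 3. The isotype control libraries lay 11.4 to 17.0 from each other, and DTA-1 replicates 2 and 3 lay 11.4 apart. Pearson r of log2 CPM between DTA-1 replicate 1 and isotype control was 0.977 to 0.979. It was 0.977 and 0.976 to DTA-1 replicates 2 and 3, and 0.980 among isotype control libraries. On principal component 1, DTA-1 replicate 1 (−9.56) lay nearer isotype control (−25.5 to −15.6) than DTA-1 replicates 2 and 3 (40.2, 28.6). On component 2 it stood alone at −45.4, against −6.76 to 21.1 elsewhere, so it also differed from isotype control. All 5 subunits had a value in DTA-1 replicate 1 that lay within the range of the isotype control libraries, as did 54.1% of the 14361 genes tested. Some other genes had values in DTA-1 replicate 1 like those of its group. Fbn1, a fibroblast marker of few reads, had 20, 22 and 35 counts in isotype control and 0 in each DTA-1 library. Pdgfrb, another fibroblast marker, went the other way, with 27 counts in DTA-1 replicate 1 and 0 in DTA-1 replicates 2 and 3. The label of DTA-1 replicate 1 was not tested, and every DTA-1 mean, SD and fold change over all 6 libraries takes it as given. Each test of a subunit is therefore given with this library and without it. The fit without it was read with its control-like subunit values known, and dropping such a library lowers the spread within DTA-1. Adjusted p and intervals of that fit thus overstate the certainty for such genes. A rise or fall named there describes DTA-1 replicates 2 and 3 only. The 15 ILC2 markers, among them Gata3, Il1rl1 (ST2) and Kit (CD117), were all tested and 0 were called, while Il5 and Areg rose and Icos fell once that library was left out (0.583% of all genes were called higher and 0.161% lower in that fit). Tnfrsf18, which encodes GITR, had 666 to 747 normalized counts in isotype control, against 657 to 756 with DTA-1.

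Nfkb1 had the most reads of the 5 genes in isotype control and in DTA-1 replicate 1, and Nfkb2 had the most in DTA-1 replicates 2 and 3. Nfkb1 lies on chromosome 3 (135584655 to 135691547). In isotype control replicates 1, 2 and 3 it had 409, 380 and 394 normalized counts (CPM after TMM). In DTA-1 replicates 1, 2 and 3 it had 406, 272 and 270 normalized counts. DTA-1 replicates 2 and 3 were thus below every isotype control library, while DTA-1 replicate 1 was at their level, so the groups overlapped. Group means (± SD, n = 3) were 395 ± 14.5 for isotype control and 316 ± 78.1 for DTA-1. The log2 fold change of Nfkb1 was −0.32 (95% interval −0.62 to −0.03), and the gene was not called (edgeR adjusted p = 0.657). Without DTA-1 replicate 1 it was −0.54 (95% interval −0.67 to −0.41, edgeR adjusted p = 0.00162), which passed the adjusted p and fell short of 1.5-fold.

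Rela (chromosome 19, 5637483 to 5648130) encodes the main transactivating subunit of the canonical dimer. It was at 186, 171 and 187 normalized counts in the isotype control libraries, against 181, 201 and 204 in the DTA-1 libraries. DTA-1 replicates 2 and 3 lay above the isotype control range by a small margin, and DTA-1 replicate 1 lay inside it. Group means (± SD, n = 3) were 181 ± 8.88 for isotype control and 195 ± 12.9 for DTA-1. Rela had a log2 fold change of 0.11 over all 6 libraries (95% interval −0.05 to 0.26, edgeR adjusted p = 0.767). Without DTA-1 replicate 1 it was 0.16, with a 95% interval of 0.01 to 0.31 that ends below 1.5-fold (edgeR adjusted p = 0.304). Of the 5 subunits Rela moved least in that comparison.

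Rel (chromosome 11, 23736847 to 23770970), which encodes c-Rel, a subunit prominent in activated lymphocytes, was scarce. It was at 159, 135 and 136 counts in the isotype control libraries, against 122, 193 and 143 in the DTA-1 libraries, or 3.85 to 4.49 and 3.95 to 6.18 normalized counts. At this depth the exact 95% Poisson interval of a single library, which covers counting error only, was 3.28 to 4.71 normalized counts in DTA-1 replicate 1 and 5.34 to 7.12 in DTA-1 replicate 2. DTA-1 replicate 2 was thus the 1 library above the rest, and the groups overlapped. The log2 fold change of Rel was 0.26 (95% interval −0.28 to 0.80, edgeR adjusted p = 0.853), and 0.39 when DTA-1 replicate 1 was left out (95% interval −0.17 to 0.95, edgeR adjusted p = 0.544). Both intervals allow a change of 1.5-fold, so none is dismissed for Rel. The intervals of DTA-1 replicates 1 and 2 do not overlap, so these libraries differed by more than counting error.

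Nfkb2 (chromosome 19, 46304737 to 46312090) differed most. It was at 115, 103 and 115 normalized counts in the isotype control libraries, against 108, 307 and 315 in the DTA-1 libraries. DTA-1 replicates 2 and 3 were far above every isotype control library and close to each other, and DTA-1 replicate 1 was among the isotype control libraries. With all 6 libraries Nfkb2 had a log2 fold change of 1.13 (SE 0.43, 95% interval 0.04 to 2.22), with an edgeR adjusted p of 0.678. Without DTA-1 replicate 1 Nfkb2 rose 2.80-fold (log2 fold change 1.49, 95% interval 1.33 to 1.64, edgeR adjusted p = 1.34e-05). The gene overlaps the end of Psd, on the opposite strand, by 4 bases. Psd was at 79, 121 and 98 counts in the isotype control libraries, against 85, 196 and 237 in the DTA-1 libraries, a small number beside the 3336 to 10036 counts of Nfkb2. The strand setting is not given, so reads of Nfkb2 and Psd at that end cannot be told apart.

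Relb (chromosome 7, 19606217 to 19629438), the partner of p52, followed the same libraries. It was at 43.5, 39.9 and 35.1 normalized counts in the isotype control libraries, against 39.4, 85.1 and 85.5 in the DTA-1 libraries. DTA-1 replicates 2 and 3 again lay above the isotype control range and DTA-1 replicate 1 lay within it. The log2 fold change of Relb was 0.83 (95% interval 0.28 to 1.37, edgeR adjusted p = 0.627). In the 5 libraries left without DTA-1 replicate 1, Relb rose 2.16-fold (log2 fold change 1.11, 95% interval 0.88 to 1.34, edgeR adjusted p = 0.000610).

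**Figure D1:**
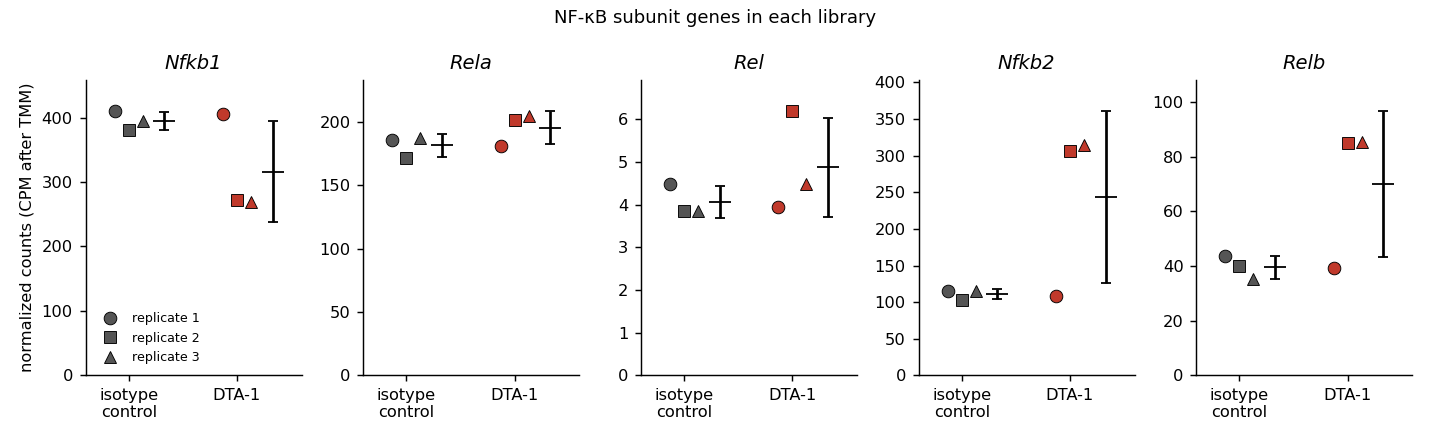
Normalized counts (CPM after TMM, vertical axes from 0) of the 5 subunit genes in the 3 isotype control (grey) and 3 DTA-1 (red) libraries, with the replicate number as the marker shape and the mean ± SD beside each group. DTA-1 replicate 1 sits among the isotype control libraries in every panel, while DTA-1 replicates 2 and 3 have means of 311 for Nfkb2, 85.3 for Relb and 271 for Nfkb1.

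Over all 6 libraries edgeR called 0 of the 5 subunits, where 0.0% of all genes tested were called. By unadjusted p (under 0.05, at least 1.5-fold), 2 subunits, Nfkb2 and Relb, were higher with DTA-1 and 0 were lower, where 1.09% of all genes were higher, 1.26% lower and 2.35% either. Dropping the fold limit added Nfkb1 (unadjusted p = 0.0345 by edgeR), for 3 of 5 subunits where 7.22% of all genes passed. DESeq2's Wald test, which called 0.0983% of 20351 genes, and limma-trend called 0 subunits. The groups did not overlap in 0 of the 5 subunits, against 11.3% of all genes (5.26% with DTA-1 higher and 6.03% with DTA-1 lower). Both DTA-1 replicates 2 and 3 lay above the isotype control range in 3 subunits (Rela, Nfkb2 and Relb), as in 15.5% of all genes, and below it in 1 (Nfkb1), as in 16.1%.

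Once DTA-1 replicate 1 was left out, Nfkb2 and Relb were called higher and 0 subunits lower, where 0.744% of 14911 genes were called, 0.583% higher and 0.161% lower. With no fold limit Nfkb1 joined them as a lower subunit, where 1.7% of genes passed in either direction and 0.342% were lower. The subunit count stayed at 0 when any other library was left out, and no subunit changed direction in any of these fits. In those fits Nfkb2 ranged from a log2 fold change of 0.90 without DTA-1 replicate 3 to 1.16 without isotype control replicate 1.

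**Figure D2:**
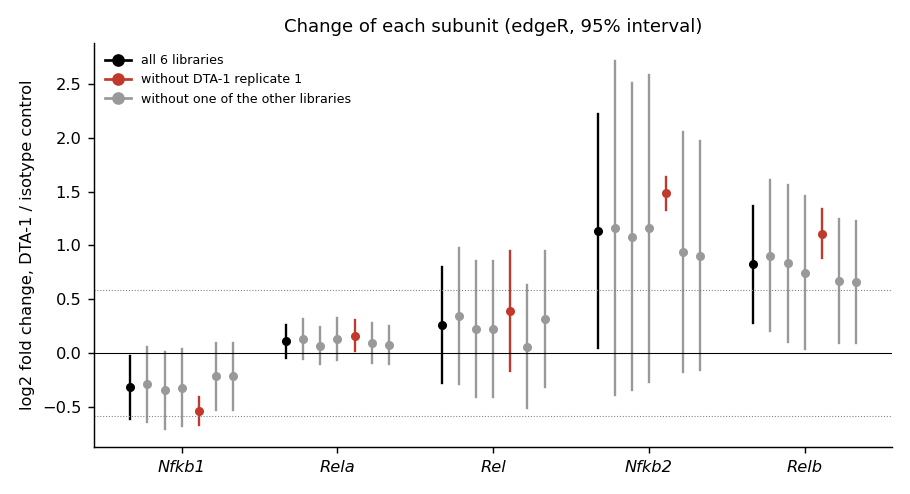
Log2 fold change of each subunit, DTA-1 over isotype control, with the 95% interval from edgeR for all 6 libraries (black), without DTA-1 replicate 1 (red) and without each of the others (grey). Dotted lines mark 1.5-fold. The red intervals of Nfkb2 and Relb lie wholly above that line (1.33 to 1.64 and 0.88 to 1.34), and the black ones cross it.

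Reads per gene also reflect gene length, so levels of different subunits were compared as normalized counts per kb. By merged exon length the order in isotype control was Rela (59.0 ± 2.89 per kb), Nfkb1 (32.7 ± 1.20), Nfkb2 (24.2 ± 1.503), Relb (10.2 ± 1.08) and Rel (0.545 ± 0.0496; SD, n = 3 each). No neighbours in that order overlapped, and the order was the same in each isotype control library and in DTA-1 replicate 1. In the mean over the isotype control and DTA-1 libraries, Rela ranked above 93.1% of the 14098 tested genes with a length and Rel above 19.3%. In DTA-1 replicates 2 and 3 Nfkb2 had 66.9 and 68.7 per kb, close to Rela at 65.5 and 66.5, and Nfkb1 had 22.5 and 22.4 per kb, close to Relb at 21.9 and 22.02. With DTA-1 replicate 1 included, Nfkb2 (53.0 ± 25.6 per kb) overlapped with both Rela (63.6 ± 4.19) and Nfkb1 (26.2 ± 6.47) among the DTA-1 libraries.

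The place of Nfkb1 depended on the length used. Its merged exons span 12061 bases, while its longest transcript has 4149 and its coding sequence 2913. Per kb of longest transcript Nfkb1 led in isotype control with 95.1 ± 3.50, above Rela with 66.8 ± 3.27 (SD, n = 3 each). In DTA-1 replicates 2 and 3 the order by longest transcript was Nfkb2 (79.7 and 81.9 per kb), Rela (74.1 and 75.2) and Nfkb1 (65.5 and 65.0). By coding length Rela stayed ahead of Nfkb2 in these libraries, with 122 and 124 against 114 and 117 per kb. Under all of the lengths Nfkb1 was above Nfkb2 in the isotype control libraries and in DTA-1 replicate 1, and below it in DTA-1 replicates 2 and 3. Relb and Rel were the lowest in every library.

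The summed level of the 5 subunits per kb of merged exons was 131, 120 and 128 in isotype control, against 127, 178 and 180 with DTA-1. Of this pool Nfkb2 made up 19.1%, 18.6% and 19.5% in isotype control, against 18.6%, 37.7% and 38.1% with DTA-1. The share of Nfkb1 was 25.8%, 26.2% and 25.5% in isotype control, against 26.6%, 12.7% and 12.4% with DTA-1. The pool of DTA-1 replicates 2 and 3 was thus larger, with more Nfkb2 and Relb and less Nfkb1, while that of DTA-1 replicate 1 was made up like those of isotype control. Rel was at most 0.466% of the pool in any library.

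**Figure D3:**
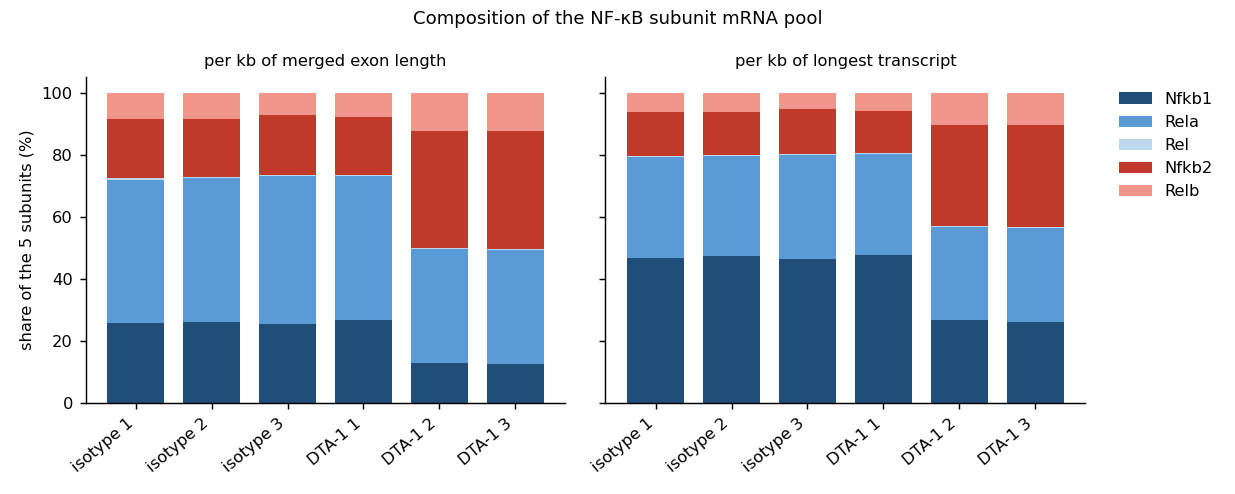
Share of each subunit (%) in the summed level per kb of the 5 subunits, by library, with merged exon length on the left and longest transcript on the right. Canonical genes are blue and noncanonical genes red, and Rel is too thin to see (at most 0.466% by merged exons). On the left Nfkb2 fills 37.7% and 38.1% for DTA-1 replicates 2 and 3, against 18.6% to 19.5% in the other libraries.

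The canonical to noncanonical ratio was taken as the summed level per kb of Nfkb1, Rela and Rel over that of Nfkb2 and Relb. By merged exon length it was 2.62, 2.68 and 2.76 in isotype control, against 2.76, 1.00 and 0.986 with DTA-1. DTA-1 replicate 1 lay at the top of the isotype control range, just past its highest library. DTA-1 replicates 2 and 3 had nearly equal summed mRNA levels of the canonical and the noncanonical genes by this length only. In these libraries the ratio was 1.33 and 1.304 by longest transcript, 1.33 and 1.31 by coding length, and 0.279 and 0.248 from geometric means of merged exon levels. Group means (± SD, n = 3) were 2.69 ± 0.0683 for isotype control and 1.58 ± 1.02 for DTA-1, and 0.993 over DTA-1 replicates 2 and 3. No test was made on this ratio, because the subunits were chosen with results known.

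Both pairs of related genes contributed. The ratio of Nfkb1 to Nfkb2, the precursor genes, was 1.35, 1.40 and 1.304 in isotype control, against 1.43, 0.337 and 0.325 with DTA-1. The ratio of Rela to Relb was 5.41, 5.43 and 6.73 in isotype control, against 5.80, 2.99 and 3.02 with DTA-1. In DTA-1 replicates 2 and 3 the mean ratio was thus 0.244 of the isotype control mean for the precursors and 0.513 for Rela and Relb. These fractions do not depend on gene length. Within the noncanonical pair, Nfkb2 to Relb was 2.24, 2.19 and 2.77 in isotype control, against 2.32, 3.05 and 3.12 with DTA-1. Within the canonical pair, Nfkb1 to Rela was 0.561, 0.566 and 0.536 in isotype control, against 0.572, 0.344 and 0.336 with DTA-1. Precursor genes together, over Rela, Relb and Rel together, were at 0.812 to 0.819 in isotype control, against 0.823 to 1.02 with DTA-1 by merged exons. That order turned around by longest transcript, with 1.56 in each isotype control library and 1.59, 1.44 and 1.44 in DTA-1, so no direction is read from it.

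**Figure D4:**
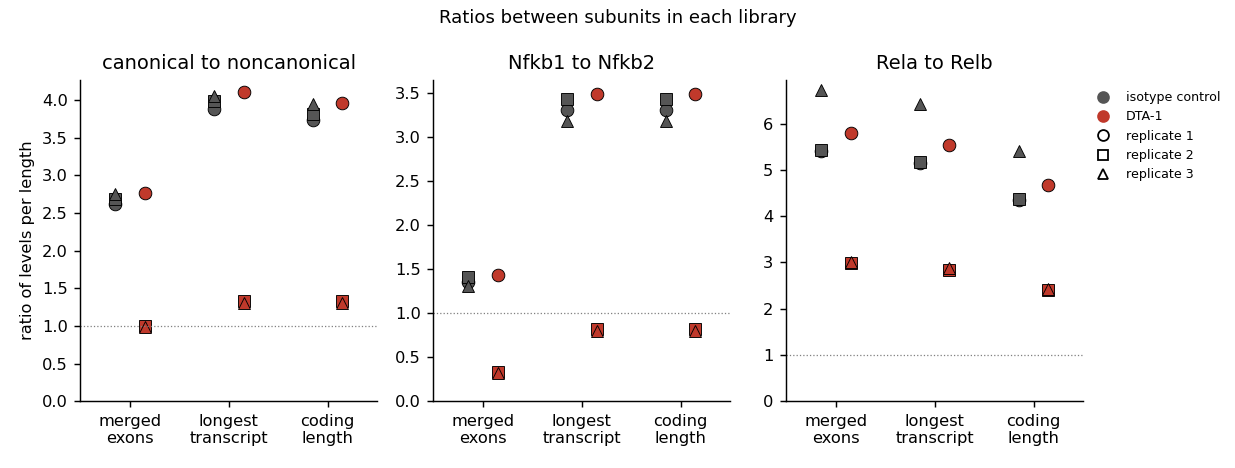
Ratio of levels per length in each library for the canonical to noncanonical sum, Nfkb1 to Nfkb2, and Rela to Relb, with 3 definitions of gene length on the horizontal axes. Isotype control is grey, DTA-1 is red, marker shapes give the replicate and the dotted line is a ratio of 1. The lengths move all libraries together, and DTA-1 replicates 2 and 3 are below every other library in each panel (0.986 to 1.00 against 2.62 to 2.76 for the leftmost points).

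Genes with a pattern most like each subunit were sought by the Pearson r of log2 CPM over the 6 libraries, which describes these libraries and which the level of DTA-1 replicates 2 and 3 dominates. For Nfkb2 they were Pgam1 (r = 0.998) and Pkm (r = 0.998), enzymes of glycolysis, and Birc3 (r = 0.997), a ubiquitin ligase of the NIK complex. For Relb they were Serpina3g, Ncln and Gsn, with r of 0.999, 0.998 and 0.997. Arg1, the arginase of ILC2s, was the closest to Nfkb1 (r = 0.999), with 659 to 675 normalized counts in isotype control, against 673, 597 and 591 with DTA-1, followed by Psrc1 and Tcea1. The change of Arg1 (log2 fold change −0.10) was much smaller than that of Nfkb1, since r follows the order and spacing of libraries whatever the size of a change. For Rela the closest genes were Cul7, Aplp1 and Hipk2, and for Rel they were Psmc2, Mtmr14 and Tmem248. Many other genes were nearly as close: 433 of 8719 genes had an r over 0.9 to Nfkb2 and 291 to Nfkb1.

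The IκB family, whose members bind the subunits and are not all simple inhibitors, had 6 genes tested. With all 6 libraries 0 were called by edgeR, where 0.0% of all genes were, and in 5 the DTA-1 mean was the higher. Nfkbia (IκBα), the classical feedback inhibitor, was at 102, 88.5 and 84.4 normalized counts in the isotype control libraries, against 87.3, 214 and 202 in the DTA-1 libraries. With DTA-1 replicate 1 left out, Nfkbia (log2 fold change 1.19, edgeR adjusted p = 0.000115) and Nfkbie (IκBε, 0.79, edgeR adjusted p = 0.00570) rose, 2 of 6 where 0.583% of all genes were called higher. Nfkbib, Nfkbid, Nfkbiz and Bcl3 were not called there, with log2 fold changes of 0.32, 0.35, −0.24 and 0.22. The median log2 fold change of the family was 0.23, beside −0.01 over all genes tested, and 0.33 beside −0.02 without that library.

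Genes that govern p100 processing numbered 7, and 0 were called with all 6 libraries, where 0.0% of all genes were. Map3k14 (NIK), the kinase of the noncanonical arm, was at 22.9, 24.5 and 29.6 normalized counts in the isotype control libraries, against 24.6, 30.8 and 38.1 in the DTA-1 libraries. With DTA-1 replicate 1 left out its change was 0.43 on the log2 scale (edgeR adjusted p = 0.216). The 1 gene of 7 called there, where 0.744% of all genes were, was Birc3, with 80.7, 80.1 and 86.2 normalized counts in the isotype control libraries against 82.1, 159 and 164 in the DTA-1 libraries (log2 fold change 0.97 without that library, edgeR adjusted p = 0.000115). Traf2 and Traf3, which hold NIK at a low level, had log2 fold changes of 0.44 and 0.55 there (edgeR adjusted p = 0.0290 and 0.0154), short of 1.5-fold. Birc2, Btrc and Fbxw11 had log2 fold changes of 0.26, 0.04 and 0.19.

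Of 9 genes of the IκB kinase and its upstream kinases, 0 were called with or without DTA-1 replicate 1, where 0.0% and 0.744% of all genes were. Their median log2 fold change was 0.06 and 0.10, and Chuk, Ikbkb and Ikbkg, the core of the IκB kinase, were at 0.10, 0.11 and 0.06 with all 6 libraries. Map3k8 and Tnip2, whose products bind p105, were at −0.07 and 0.19. Among 8 nuclear regulators of the subunits 0 were called, with a median of −0.01. Ep300, a coactivator of RelA, was at 54.3, 44.3 and 51.1 normalized counts in the isotype control libraries, against 44.0, 38.8 and 39.1 in the DTA-1 libraries (log2 fold change −0.30, edgeR adjusted p = 0.632). The NFAT genes, relatives with a Rel homology region, had 4 of 5 members tested, 0 called and a median of 0.00. With so few of all genes called, 0 calls in lists of this size do not set these lists apart.

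A list of 24 NF-κB target genes, with no subunit in it, had 20 genes tested. With all 6 libraries 0 were called by edgeR, 6 passed by unadjusted p and 1.5-fold (all higher, where 1.09% of all genes were higher and 1.26% lower), and DESeq2 called 1 of the genes of all these pathway lists, Tnip3. The median log2 fold change was 0.50. Once DTA-1 replicate 1 was left out, 9 of 21 rose and 0 fell, with a median of 0.71, where 0.583% of all genes were called higher and 0.161% lower. Among these Ltb, a ligand of the noncanonical pathway, was at 166, 125 and 142 normalized counts in the isotype control libraries, against 142, 514 and 491 in the DTA-1 libraries. Tnf, the canonical cytokine of this list, was higher in every DTA-1 library (10.2, 19.8 and 16.2 normalized counts) than in isotype control (9.89, 6.67 and 7.34). The groups did not overlap in 3 targets that were higher with DTA-1 (Tnf, Tnip3 and Gadd45b) and in 2 that were lower (Bcl2l1 and Il6), against 5.26% and 6.03% of all genes. Il6 was at 2.54, 3.22 and 2.41 normalized counts in isotype control and lower in each DTA-1 library (2.04, 1.86 and 1.6). Sod2, Irf1, Bcl2l1 and Cflar, also textbook targets, were not called in either comparison, with log2 fold changes of −0.02, −0.05, −0.17 and 0.14 without that library. The lists were chosen with results of these libraries known, so their counts are not independent evidence of a direction.

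**Figure D5:**
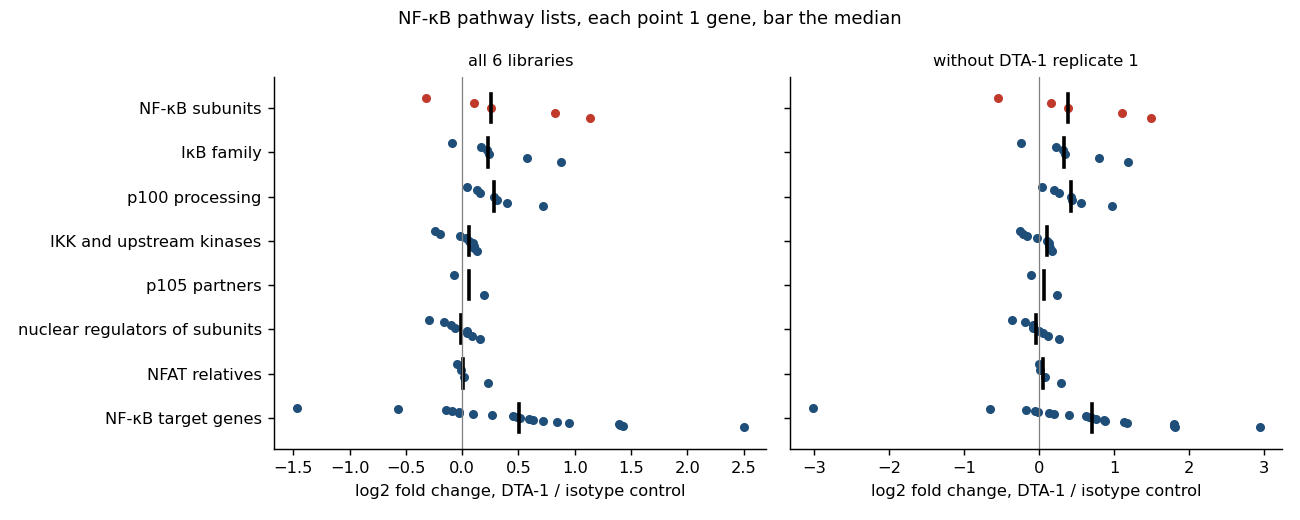
Log2 fold change, DTA-1 over isotype control, of each tested gene (points) of the NF-κB subunits (red) and of the pathway lists (blue), with the list median as a bar, for all 6 libraries (left) and without DTA-1 replicate 1 (right, wider axis). The target genes have the highest median (0.50 and 0.71), and the medians of the kinases are 0.06 and 0.10.

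In RNA of a sorted population, fewer cells of a type and less RNA per cell cannot be told apart, and cells of other types express Relb, Nfkb2 and Rel. The sort removed cells that carry surface markers of T, B, myeloid, dendritic and FcεRI-bearing cells. Of the B cell markers Ms4a1 and Pax5 were at 0 in all libraries, and the summed level of the list was 17.0 to 17.8 CPM in isotype control, against 17.6 to 18.9 with DTA-1. The 8 dendritic cell markers summed to 48.2 to 51.8 and 47.5 to 52.2 CPM, nearly all of it Xcr1, with Clec9a at 0 and Flt3 at 0.340 CPM or less. Of the 4 dendritic cell markers tested 0 were called, but their median log2 fold change was 0.47 (0.66 without DTA-1 replicate 1), and Zbtb46 was at 0.480, 1.1405 and 0.794 CPM in isotype control and higher in each DTA-1 library (1.23, 2.43 and 1.22). The 10 macrophage markers summed to 6.79 to 12.7 CPM in isotype control, against 9.09 to 11.9 with DTA-1, with C1qb at 0. The 6 neutrophil markers summed to at most 1.05 CPM, with S100a8, S100a9, Elane and Camp at 0. The 8 T cell markers summed to 201 to 222 and 209 to 220 CPM, nearly all of it Lat and Cd3g, and Cd8a was at 0.

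The 6 mast cell and basophil markers summed to 11.6 to 16.9 CPM in isotype control, against 12.4, 30.7 and 22.2 with DTA-1. Much of this was Cpa3, at 4.37 to 7.49 CPM in isotype control, against 6.82, 19.4 and 12.8 with DTA-1. Without DTA-1 replicate 1, Cpa3 was called higher (log2 fold change 1.33, edgeR adjusted p = 0.0391), where 0.583% of all genes were. Fcer1a, Tpsb2 and Mcpt8 were not called there, with log2 fold changes of 0.84, 0.36 and −0.94. The 8 fibroblast markers summed to 6.67, 2.82 and 9.41 CPM in isotype control, against 0.873, 0.288 and 3.98 with DTA-1, so the groups overlapped. The level of DTA-1 replicate 1 was all Pdgfrb (27 counts). Col3a1 was as high in DTA-1 replicate 3 (2.89 CPM) as in isotype control replicate 3 (2.89 CPM). The 5 endothelial markers summed to 24.4, 18.4 and 22.2 and to 18.3, 10.6 and 11.4 CPM, nearly all of it Pecam1, with Cdh5 and Emcn at 0. In the fit without DTA-1 replicate 1, Col1a1, Pdgfra, Fbn1 and Pecam1 were called lower, where 0.161% of all genes were. Pdgfra and Fbn1 rest on few reads, with 14 to 68 and 20 to 35 counts in isotype control and 0 in each DTA-1 library. The part of these lists in the difference of Nfkb2, Relb and Nfkb1 was not tested.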

How the data were processed

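RNA-seq was done on 3 isotype control and 3 DTA-1 libraries of sorted mouse ILC2s. According to the submitters' processing notes, base calls were converted with bcl2fastq 2.17.1.14, reads were aligned with STAR 2.5.3a to mm10, and genes were quantified with Partek. The table the authors deposited holds expected counts, which are estimates of the reads of each gene, not normalized. The annotation release, the strand setting and the treatment of reads shared by genes are not given in the sources used here. The table had 53278 genes, and 0 sample columns were left out. Of 49721 symbols shared with GENCODE release M21 (GRCm38), 48283 had the same chromosome and start.

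Expected counts were rounded and fitted in R 4.3.3 with edgeR 4.0.16 (filterByExpr, TMM, robust quasi-likelihood test), with DTA-1 against isotype control as the only term. A gene was called at an adjusted p under 0.05 (Benjamini-Hochberg over the 14361 genes tested) together with a 1.5-fold or larger change, as in the study. Normalized counts are CPM after TMM. For levels per length these were divided by the merged exon length of the gene in GENCODE M21, or by its longest transcript or coding sequence. Alternatives were DESeq2 1.42.0 (size factors, Wald test), limma 3.58.1 (trend, prior count 2), total counts, no filter, a minimum of 10 counts per library, a replicate block, no fold limit, and each library left out in turn. In simulated data 174 of 200 genes changed by 2-fold were recovered, with 16 other calls among the 14361 genes. The simulation used the same dispersion for every gene, and no library in it stood apart as DTA-1 replicate 1 does. It checks the code and does not give the power of the test in these data. The fit lacking DTA-1 replicate 1 comes from the planned leave-one-out, but that library's likeness to isotype control was known. The 5 subunits and all lists were chosen with earlier results of these data known. Genes named are the subunits, the list members, and for each subunit the 3 genes with the highest Pearson r of log2 CPM (mean CPM of at least 10). Psd and Gm43430 were named because they overlap a subunit gene. Python 3.11.15 (pandas 2.3.3, numpy 2.4.6, matplotlib 3.10.9) was used for tables and figures.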

Additional observations from a re-analysis of the deposited data

How the results depend on the processing

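Direction held for all 5 subunits under the 14 alternatives, and Nfkb1, Rela and Rel kept their side of the threshold in each. Nfkb2 and Relb did so in each but the fit without DTA-1 replicate 1. In that fit 2 subunits were called, with log2 fold changes of 1.49 for Nfkb2 and 1.11 for Relb, and 12 genes of the pathway lists and 111 of all genes were called, all against 0 with every library. With each library left out in turn the log2 fold change ranged from 0.90 to 1.49 for Nfkb2 and from 0.66 to 1.11 for Relb, the number of subunits called from 0 to 2 and that of pathway genes from 0 to 12. DESeq2's Wald test called 1 pathway gene and 20 of all genes, the fit without a filter 2 of all genes, and the replicate block 1. The cause was not tested.

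No pairing by replicate number was seen: deviations from the group means correlated at −0.01 to 0.02 over the 3 pairs. Samples of unlike number correlated at −0.0145 to 0.0161. Values this near each other do not settle whether the samples were paired. With the replicate block the log2 fold change of Nfkb2 was 1.00 and that of Relb 0.75, and 0 subunits were called.

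The canonical to noncanonical ratio of isotype control was 3.97 by longest transcript, 3.83 by coding length and 0.649 from geometric means, against 2.69, and with DTA-1 it was 0.395 from geometric means, against 1.58. The ratio was lower in the DTA-1 mean under each. With each DTA-1 library left out it ranged from 0.993 to 1.88, and with each isotype control library left out from 2.65 to 2.72. Rel rests on the fewest reads of the subunits, with 122 to 193 counts per library.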

Other observations

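The rows that overlap a subunit gene were read for themselves. Psd, which ends on the opposite strand within the last 4 bases of Nfkb2, had 2.23, 3.45 and 2.78 normalized counts in the isotype control libraries, against 2.75, 6.28 and 7.43 in the DTA-1 libraries, so the same DTA-1 libraries were high as for Nfkb2 (log2 fold change 0.96, edgeR adjusted p = 0.639). Gm43430, annotated inside Nfkb1 on the same strand over 3897 bases, had 4.10, 1.85 and 2.78 normalized counts in the isotype control libraries, against 3.49, 1.76 and 1.51 in the DTA-1 libraries, and its groups overlapped (log2 fold change −0.37, edgeR adjusted p = 0.878). The overlap of reads between these rows and the subunit genes was not tested.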
